A study of Mus musculus with 2 samples.

Results

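The genes described here are the 10 that make the enzymes of V(D)J recombination and of the end joining that completes it in the mouse. They were chosen by name, and all transcripts that GENCODE M21 assigns to them were taken. The deposited table lists 35 of their 38 annotated transcripts among 93615 rows, and all 10 genes were measured, meaning that they reached 1 RPKM in at least 1 library. RPKM stands for reads per kilobase of transcript, scaled to the size of the library, so levels of different genes can be compared per length.

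The study compared pro-B cells, the bone marrow stage at which the immunoglobulin heavy chain gene is assembled, with and without the histone methyltransferase gene Setdb1. The C/C culture carried undeleted Setdb1 alleles and the Δ/Δ culture carried deleted ones. Cells of both genotypes came from bone marrow by cell sorting, carried a bcl2 transgene, and grew with IL-7 at 5 ng/µl to day 4. The labels give neither the promoter of the transgene, the exons removed from Setdb1, nor the age, strain or number of the animals. Each genotype has 1 library, so every difference below lies between 2 libraries, has no replicate check and carries no p-value.

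The 2 libraries differed in more than the genotype. Over its whole transcript Setdb1 itself was at 16.97 RPKM in C/C against 12.6 RPKM in Δ/Δ, which does not tell how complete the deletion was. Xist, the RNA of the inactive X chromosome, was at 0.0940 RPKM in C/C against 23.7 RPKM in Δ/Δ, and the Y-linked gene Ddx3y at 10.2 against 0.00900 RPKM, so genotype and sex cannot be told apart for any gene. Depth recovered from the values was 170.6 M reads in C/C and 193.3 M reads in Δ/Δ (M, mega). Intervals below are exact 95% intervals of a ratio of counts and cover counting error only. Where a sentence gives a pair of RPKM values, C/C comes first and Δ/Δ second.

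V(D)J recombination builds antibody and T cell receptor genes by cutting between gene segments and joining them again. RAG1 and RAG2 together form the recombinase: RAG1 holds the active site, and RAG2 binds a histone mark of active chromatin through its PHD finger. The cut leaves sealed hairpin ends, which the nuclease Artemis (gene Dclre1c) opens once it is activated by DNA-PKcs (Prkdc). DNA-PKcs is held at the ends by the Ku heterodimer (Xrcc5 and Xrcc6). Terminal transferase (Dntt) adds bases without a template, and the ligase LIG4 with its partners XRCC4 and XLF (Nhej1) seals the joint. RAG and terminal transferase are made mainly in developing lymphocytes, whereas the joining enzymes repair double-strand breaks in all tissues.

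The recombinase gene Rag1 was lower in the Δ/Δ library and its partner Rag2 was not called lower. Rag1 was at 27.3 RPKM in C/C against 6.64 RPKM in Δ/Δ, 4.12-fold lower (interval 3.98 to 4.26). Terminal transferase RNA had the highest ratio of the 10, with Dntt at 142 RPKM in C/C against 256 RPKM in Δ/Δ, a ratio of 1.81 (1.78 to 1.83). The end-joining genes lay between them, from Nhej1 with a ratio of 0.602 to Prkdc with a ratio of 1.43.

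A gene was called lower or higher when log2((Δ/Δ + 0.5) / (C/C + 0.5)) of its RPKM was at most -1 or at least 1, a 2-fold rule of size. By it 1 of the 10 genes was lower, beside 6.66% of the 12556 measured genes, and 0 were higher, beside 6.28%. A 1.5-fold rule called 2 of the 10 lower (16.7% of measured genes), Rag1 and Nhej1, and 1 higher (12.6%), Dntt. A 4-fold rule called 0 lower (1.86%) and 0 higher (1.75%). The median log2 ratio of the 10 genes was -0.04, and that of all measured genes was -0.09. Of the 10, 5 had a log2 ratio above 0 and 5 below it, and 7 lay within 0.5 of it. Only Rag1, at -1.96, lay outside the range that holds the middle of the measured genes from the 5th to the 95th percentile, which ran from -1.21 to 1.15. It ranked 252nd from the lowest, and 2.01% of measured genes had a log2 ratio as low or lower. Dntt, at 0.85, had 7.97% of measured genes as high or higher.

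**Figure D1:**
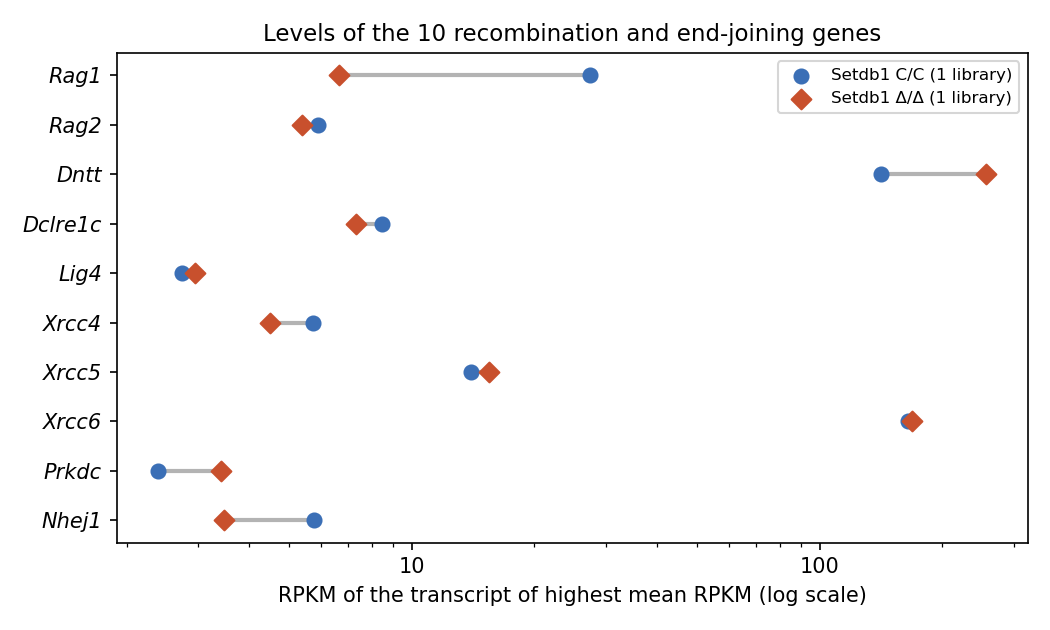
RPKM (log axis) of each of the 10 genes in the C/C library (circles) and the Δ/Δ library (diamonds), 1 library each, joined by a grey line. Rag1 goes from 27.3 to 6.64 RPKM and Dntt from 142 to 256 RPKM, while the markers of Rag2, Lig4, Xrcc5 and Xrcc6 nearly coincide.

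The levels themselves spanned a wide range. In C/C the most abundant RNA per length came from Xrcc6 at 165 RPKM and from Dntt at 142 RPKM. Rag1 at 27.3 RPKM and Xrcc5 at 14.0 RPKM followed. Dclre1c, Rag2, Nhej1 and Xrcc4 formed a group between 8.46 and 5.71 RPKM. Within it the counting intervals do not show whether neighbours in this order would keep it in another culture. Lig4 at 2.74 RPKM and Prkdc at 2.39 RPKM were the lowest. In Δ/Δ Dntt stood first at 256 RPKM, ahead of Xrcc6 at 168 RPKM. Rag1 at 6.64 RPKM stood there between Dclre1c at 7.32 RPKM and Rag2 at 5.39 RPKM. Both Xrcc6 values are from a retained intron, and the change of first place depends on that choice. The highest coding transcript, Xrcc6-201, measured 128 and 147 RPKM, below Dntt in either library.

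Rag1 and Rag2 lie next to each other on chromosome 2 and are transcribed towards each other. In GRCm38 coordinates Rag1 (ENSMUST00000078494) occupies 101638282 to 101649501 on the minus strand. The Rag2 transcript of highest level (ENSMUST00000111227) occupies 101624746 to 101631053 on the plus strand. Per length, Rag1 RNA stood 4.65 times as high as Rag2 RNA in C/C (interval 4.35 to 4.97) and 1.23 times as high in Δ/Δ (1.15 to 1.32). Rag2 itself was at 5.88 RPKM in C/C against 5.39 RPKM in Δ/Δ, a ratio of 0.918 (0.838 to 1.01) that includes 1. The pair was thus unequal in C/C and nearly level in Δ/Δ.

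The sequences just before the 2 start sites are shown because the pair shares a locus and had unlike ratios, with Dntt, the other lymphocyte gene, for comparison. Each line gives the 250 bases before the RefSeq start on the strand of the gene (GRCm38.p6). Their positions are chr2:101649533-101649782 (Rag1, minus strand), chr2:101624462-101624711 (Rag2, plus strand) and chr19:41029025-41029274 (Dntt, plus strand), and no annotated exon overlaps them. Capitals mark matches, on either strand, to the motifs searched.
Rag1: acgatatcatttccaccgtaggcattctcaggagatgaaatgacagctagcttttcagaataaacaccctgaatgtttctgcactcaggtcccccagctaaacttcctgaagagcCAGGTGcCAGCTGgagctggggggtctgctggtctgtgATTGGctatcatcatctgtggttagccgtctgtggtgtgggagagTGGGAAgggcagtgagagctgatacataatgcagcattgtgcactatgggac
Rag2: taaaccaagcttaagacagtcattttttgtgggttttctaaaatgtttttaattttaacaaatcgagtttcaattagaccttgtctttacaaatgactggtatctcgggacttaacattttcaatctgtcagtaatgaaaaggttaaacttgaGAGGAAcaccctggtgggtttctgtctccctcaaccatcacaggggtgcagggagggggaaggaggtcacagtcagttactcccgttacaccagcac
Dntt: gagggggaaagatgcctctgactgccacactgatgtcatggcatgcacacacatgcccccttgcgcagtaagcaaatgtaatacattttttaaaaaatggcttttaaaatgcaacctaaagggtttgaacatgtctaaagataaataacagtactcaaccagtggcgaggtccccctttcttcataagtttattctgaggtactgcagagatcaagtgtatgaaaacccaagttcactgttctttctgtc

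The Rag1 window holds a pair of E-boxes, letters that E proteins such as the product of Tcf3 bind. CAGGTG begins 135 bases before the start and CAGCTG begins 128 bases before it. Of 32851 RefSeq windows of the same length, 17.2% hold CAGGTG and 13.0% hold CAGCTG on either strand. The Rag1 window also holds an NF-Y motif (CCAAT, here on the opposite strand as ATTGG, in 33.8% of windows) and the Ikaros motif TGGGAA (21.6%). In the Rag2 window the only match is GAGGAA, the letters of the PU.1 motif (23.3%). Such motifs were not particular to Rag1: the Dclre1c window holds CAGCTG at 147 and 129 bases before its start and 3 NF-Y motifs, and both Lig4 windows hold CAGCTG, 1 of them with the Ikaros motif. None of the motifs searched matched in the Dntt window. The Xrcc6 and Xrcc4 windows, which are not shown, hold 3 GC boxes each (GGGCGG, 32.7%). The Nhej1 window and 1 of the Lig4 windows hold 2 each, and the Dclre1c window holds 1. The forkhead motif GTAAACA (3.17%), the EBF motif (0.779%) and the TATA motif TATAAA (12.4%) matched in none of the 10 windows that RefSeq gives for 9 of the genes. A match is only a match of letters.

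The content of CpG, the dinucleotide at which DNA is methylated, separated these windows. Rag1 and Rag2 have 3 CpG each and Dntt has 2, at or under the median of 6 over all windows. Xrcc5 has 5 CpG, Dclre1c 8 and Nhej1 9. Xrcc6 has 25, Xrcc4 26, and the 2 windows of Lig4 have 28 and 27. The windows at or under the median belong to Rag1, the gene called lower, and to Rag2, Dntt and Xrcc5, whose log2 ratios were -0.11, 0.85 and 0.14. The RefSeq window of Nhej1 lies far upstream of the start of the GENCODE transcript measured here.

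Reads at the Rag locus are shared with another gene, B230118H07Rik, also known as Iftap or NWC. It runs on the minus strand through both Rag genes, and 3 of its 12 listed transcripts begin at 101649532, the RefSeq start of Rag1, and contain the 80 bases of the first exon of Rag1-201 (chr2:101649422-101649501). Those 3 measured between 11.2 and 20.8 RPKM in C/C against between 4.77 and 6.25 RPKM in Δ/Δ, with ratios from 0.300 to 0.425. The other 9 begin beyond Rag1, and stood at most at 4.96 RPKM in C/C against 3.06 RPKM in Δ/Δ, with ratios from 0.583 to 1.08. So the transcripts that include the first exon of Rag1 had lower ratios than the rest of the gene, and the ranges did not overlap. Reads in that exon count for Rag1 and for B230118H07Rik alike, so how much of these values is RNA of B230118H07Rik was not tested.

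Rag2 overlaps B230118H07Rik too, on opposite strands, over 208 bases (chr2:101630341-101630548) that form an exon of transcript B230118H07Rik-208. Whether the reads kept their strand is not given in the sources used here, so reads there cannot be assigned to either gene. Subtracting B230118H07Rik-209, which lacks only that exon, leaves 179 reads in C/C and 172 reads in Δ/Δ for those bases, or 5.04 and 4.28 RPKM. Rag2-201, the longer Rag2 transcript, measured 4.14 and 3.64 RPKM. The 1567 bases that it adds to Rag2-202 lie outside the overlap and had 556 reads in C/C and 471 in Δ/Δ, a ratio of 0.748 (0.626 to 0.893). In these bases, away from the overlap, the Rag2 ratio was below 1 but nearer to 1 than the Rag1 ratio of 0.243.

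**Figure D2:**
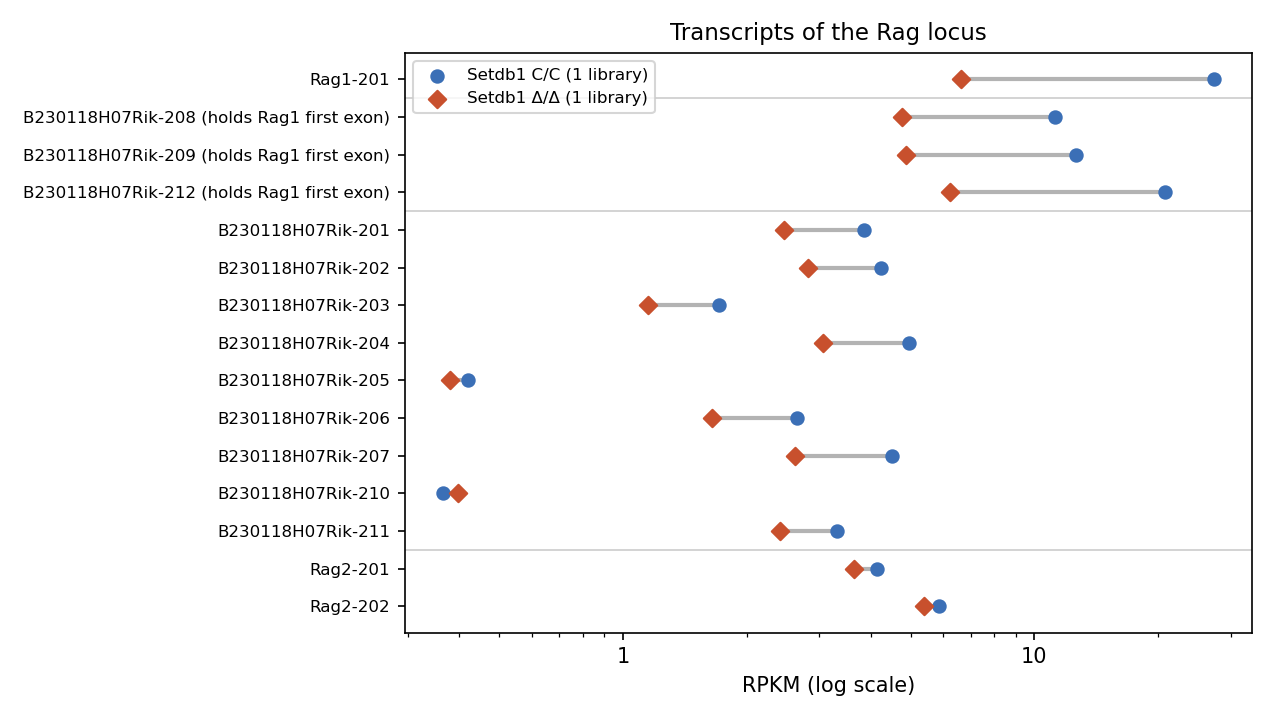
RPKM (log axis) of the listed transcripts of Rag1, B230118H07Rik and Rag2 in the C/C library (circles) and the Δ/Δ library (diamonds), 1 library each. The 3 transcripts that hold the first exon of Rag1 go from 11.2 to 20.8 RPKM in C/C down to 4.77 to 6.25 RPKM in Δ/Δ, whereas the 2 transcripts of Rag2 have nearly the same level in either library.

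The other genes around the locus did not pass the rule. Traf6, a ubiquitin ligase of immune receptor signalling, measured 14.9 and 10.8 RPKM. Commd9, which takes part in endosomal sorting, measured 23.6 and 17.4 RPKM, and Ldlrad3, a membrane receptor gene, 2.43 and 2.29 RPKM. Prr5l, at 0.629 and 0.479 RPKM, was under the level taken as measured. Of the 6 measured genes of the locus, 2 were lower (33.3%, beside 6.66% of all measured genes), Rag1 and B230118H07Rik. The transcript that stands for B230118H07Rik is a retained intron that holds the first exon of Rag1, so the 2 calls share reads. The 9 listed transcripts of B230118H07Rik without that exon had ratios from 0.583 to 1.08.

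Terminal transferase, which adds the N regions that vary antibody joints, had nearly the same ratio in its 2 listed transcripts. Dntt-202 (ENSMUST00000112200, chromosome 19, 41029382 to 41059510, plus strand) went from 142 to 256 RPKM. Dntt-201 went from 139 to 251 RPKM, and both had a ratio of 1.81. Dntt-201 holds 182 further bases, among them a 60-base exon (chr19:41058567-41058626). Over those bases 3333 reads in C/C and 6896 reads in Δ/Δ give a ratio of 1.83 (1.72 to 1.94). The rest of the 182 bases lie at the ends, where Dntt-201 starts before Dntt-202 and stops after it. Reads of the 60-base exon were not counted apart from these ends, so a shift between the transcripts was not tested. With a log2 ratio of 0.85, and 0.94 after centring on the median of all genes, Dntt stayed under the 2-fold rule.

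The relatives of Dntt in the X family of DNA polymerases differed in another direction or less. Polm (polymerase mu), which fills ends during light chain joining, was lower: its highest transcript, a processed transcript without a coding frame, was at 9.96 RPKM in C/C against 1.74 RPKM in Δ/Δ, 5.73-fold less (interval 4.60 to 7.20). All 6 listed Polm transcripts were between 5.72-fold and 6.92-fold lower. Poll (polymerase lambda), another gap-filling enzyme, measured 12.6 and 11.2 RPKM. Polb (polymerase beta), an enzyme of base excision repair, measured 24.7 and 19.2 RPKM. Per length, RNA of Dntt stood 18.1 times as high as RNA of the coding transcript Polm-202 in C/C and 198 times as high in Δ/Δ.

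The hairpin-opening step had lower ratios in the nuclease than in its kinase. All 9 listed transcripts of Dclre1c (chromosome 2) had a ratio under 1, from 0.689 to 0.955. The highest, the processed transcript ENSMUST00000146027 (3424165 to 3438052, plus strand), was at 8.46 RPKM in C/C against 7.32 RPKM in Δ/Δ, a ratio of 0.864 (0.758 to 0.985). Transcripts that reach the 3′ part of Dclre1c share 357 exonic bases with Suv39h2 on the other strand, a methyltransferase gene at 3.05 and 3.67 RPKM, but this highest one ends before it. Prkdc (ENSMUST00000023352, chromosome 16, 15637889 to 15842235, plus strand) was at 2.39 RPKM in C/C against 3.41 RPKM in Δ/Δ, a ratio of 1.43 (1.36 to 1.499). Its second listed transcript went from 1.80 to 2.81 RPKM. None of these differences passed the 2-fold rule.

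Ku RNA was nearly level between the libraries, and its 2 subunits differed widely from each other. Xrcc6, which encodes Ku70, had 11 listed transcripts with ratios from 1.02 to 1.30. The highest of them, Xrcc6-203 (ENSMUST00000164775, chromosome 15, 82029060 to 82037491, plus strand), is annotated as a retained intron and was at 165 RPKM in C/C against 168 RPKM in Δ/Δ. The highest coding transcript, Xrcc6-201, measured 128 and 147 RPKM, a ratio of 1.14 (1.12 to 1.16). Xrcc5, which encodes Ku80 (ENSMUST00000027379, chromosome 1, 72307421 to 72394952, plus strand), measured 14.0 and 15.5 RPKM, a ratio of 1.10 (1.05 to 1.16). Although the proteins pair as a heterodimer, RNA of Xrcc6-201 stood 9.17 times as high per length as RNA of Xrcc5 in C/C (8.83 to 9.52) and 9.49 times in Δ/Δ (9.18 to 9.82).

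The ligase step held 2 genes with lower values and 1 that hardly differed. Nhej1 (ENSMUST00000152855, chromosome 1, 74967139 to 75046639, minus strand), whose product XLF bridges the ends beside XRCC4, was at 5.76 RPKM in C/C against 3.47 RPKM in Δ/Δ. Its ratio of 0.602 (0.524 to 0.690) was the lowest after Rag1, and 14.0% of measured genes had a log2 ratio as low or lower. Xrcc4, the scaffold of the ligase (Xrcc4-201, ENSMUST00000022115, chromosome 13, 89848921 to 90089608, minus strand), measured 5.71 and 4.50 RPKM, a ratio of 0.788 (0.709 to 0.875). Its 4 listed transcripts did not share 1 direction. Xrcc4-203 and Xrcc4-204, which cover only the 5′ part of the gene, had ratios of 1.09 and 1.01 on at most 272 reads in C/C, with intervals of 0.865 to 1.38 and 0.780 to 1.30. Xrcc4-201 shares its first 112 bases with Tmem167 on the other strand, a gene that went from 8.98 to 18.9 RPKM. Lig4 (Lig4-202, ENSMUST00000170033, chromosome 8, 9970877 to 9977686, minus strand) measured 2.74 and 2.94 RPKM, a ratio of 1.07 (0.971 to 1.19), and its other transcript 2.65 and 2.72 RPKM.

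**Figure D3:**
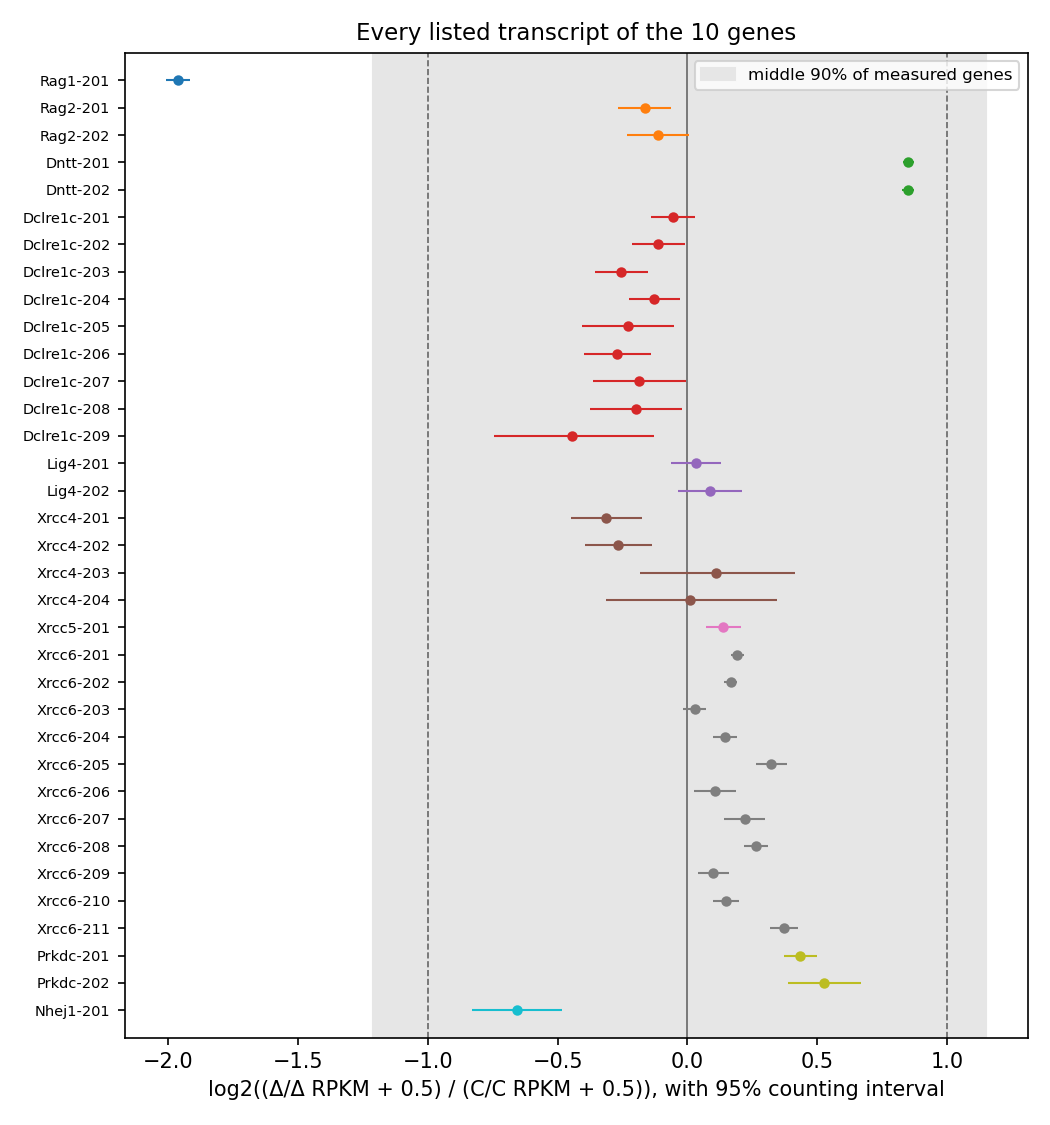
Log2 ratio of Δ/Δ to C/C, with 0.5 RPKM added to each value, for all 35 listed transcripts of the 10 genes, coloured by gene. Bars are 95% counting intervals, dashed lines the 2-fold rule and the grey band the range from -1.21 to 1.15 that holds the middle 90% of measured genes. Rag1-201, at -1.96, is the only transcript outside the band.

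Further genes of recombination and repair were followed in 9 lists that hold 117 measured genes besides the 10. Of these 117, 9 were lower (7.69%, near the 6.66% of all measured genes) and 0 higher (beside 6.28%), with a median log2 ratio of -0.31, beside -0.09 for all measured genes. Among 11 further end-joining factors 1 was lower (9.09%, near the 6.66% of all measured genes), Polm. The other 10 did not pass: among them Paxx, a partner of Ku, measured 26.4 and 14.3 RPKM, and Ercc6l2, a factor of end joining, 1.78 and 3.42 RPKM. Of 19 genes that sense and signal breaks, none passed the rule in either direction. Atm, the kinase that responds to RAG breaks and a gene chosen after its value was seen, measured 10.9 and 11.3 RPKM. Its relative Atr measured 4.75 and 7.06 RPKM, Ube2n, a ubiquitin-conjugating enzyme of the break response, 16.1 and 25.5 RPKM, Shld1, a shieldin subunit, 3.62 and 2.18 RPKM, and Paxip1, which binds damage-response proteins, 25.02 and 16.7 RPKM.

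The competing routes of repair had no gene past the rule either, beside 6.66% lower and 6.28% higher among all measured genes. At those shares, lists of 10 and 23 genes would hold few calls. Alternative end joining, which joins broken ends without Ku and LIG4, had a median log2 ratio of 0.03 over 10 genes. In it the break-sensing polymerase gene Parp1 measured 163 and 195 RPKM, Hmces 54.4 and 66.1 RPKM, the scaffold gene Xrcc1 173 and 133 RPKM, and the ligase gene Lig1 41.9 and 32.6 RPKM. Homologous recombination, which copies a sister chromatid, had a median of -0.27 over 23 genes. Its largest differences were in Rad52 (15.8 and 8.71 RPKM), Brca1 (12.9 and 7.997 RPKM), Mus81 (14.5 and 9.46 RPKM) and Xrcc3 (10.7 and 7.25 RPKM). The transcripts that stand for Paxx, Hmces and these 4 genes are annotated as processed transcripts, retained introns or targets of nonsense-mediated decay.

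Of 11 genes for cofactors and turnover of RAG, 1 was lower (9.09%, also near 6.66%), B230118H07Rik, which stands on that list as a gene of the Rag locus. Hmgb1, a DNA-bending protein that helps RAG to cut, was the most abundant at 1221 RPKM in C/C against 724 RPKM in Δ/Δ, a ratio of 0.593. Skp2, a ubiquitin ligase subunit that directs RAG2 for degradation as cells enter S phase, measured 12.4 and 8.18 RPKM, and the S phase cyclin gene Ccna2 measured 186 and 114 RPKM. These 3 stayed within the rule, and Hmgb1 has near-identical pseudogene copies that make its value uncertain.

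Regulators of Rag transcription, the longest of the 9 lists, had 7 of 31 measured genes lower (22.6%, beside 6.66% of all measured genes) and 0 higher, with a median log2 ratio of -0.60. The list joins activators and repressors, and lower values appeared among each kind. Ikzf3 (Aiolos), a zinc finger factor of later precursors, went from 63.7 to 13.5 RPKM. Spib, an ETS factor gene, went from 294 to 109 RPKM, Id3, an inhibitor of E proteins, from 66.7 to 26.6 RPKM, and Gfi1b, a repressor of Rag transcription, from 10.9 to 3.75 RPKM.

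Other regulators, chosen after their values were seen, had smaller log2 differences than Rag1. Foxo1, a forkhead factor that activates Rag1 and Rag2, was at 11.6 RPKM in C/C against 8.96 RPKM in Δ/Δ. Tcf3, which encodes the E proteins E12 and E47, measured 375 and 216 RPKM, and Ebf1, an early B lineage factor, 129 and 76.9 RPKM. Pax5, the B lineage commitment factor, went from 201 to 97.5 RPKM. It passed the rule at a log2 ratio of -1.04 but not after centring, which left 6 of the 31 lower. Satb1, a chromatin organiser that promotes Rag expression, went from 22.97 to 9.01 RPKM, and Bach2, a factor of the pre-B cell checkpoint, from 52.6 to 21.3 RPKM. Not every gene of the list had a lower value. Within the rule, Lef1 measured 59.8 and 80.0 RPKM, Tcf4 59.0 and 74.0 RPKM, and Tcf12 25.65 and 25.7 RPKM. The values of Ikzf3, Ebf1, Satb1 and Bach2 are from processed transcripts without a coding frame, and that of Id3 is from a retained intron.

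**Figure D4:**
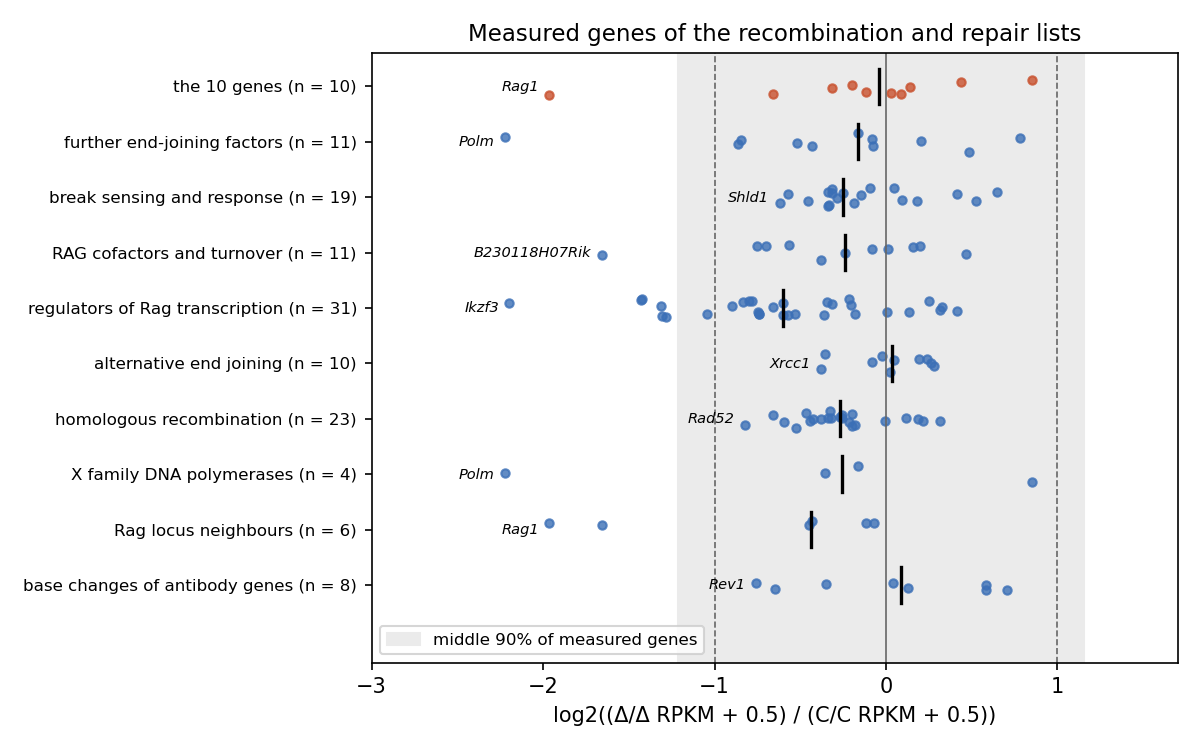
Log2 ratio of Δ/Δ to C/C, with 0.5 RPKM added, for each measured gene (point) of the 10 genes and of the 9 further lists. The 10 genes are drawn in red, black bars are list medians, dashed lines the 2-fold rule, the grey band the middle 90% of measured genes, and the lowest gene of each list is named. Regulators of Rag transcription have 7 points left of the rule, and break sensing, alternative end joining and homologous recombination have none outside it.

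Markers of cell types differed between the libraries together with these values. Their counts of calls stand beside 6.66% lower and 6.28% higher among all measured genes. In bulk RNA, fewer cells of a type and less RNA per cell cannot be told apart. Pro-B cell markers had 3 lower and 1 higher gene of 12 measured (1 lower and 1 higher after centring), and their summed level was 5408 RPKM in C/C against 4300 RPKM in Δ/Δ. The surrogate light chain genes of the same stage did not share the difference of Rag1, with Vpreb1 at 745 and 893 RPKM, Vpreb2 at 421 and 894 RPKM and Igll1 at 785 and 766 RPKM. Vpreb1 and Vpreb2 are near-identical copies, so the split of reads between them is uncertain. Markers of small pre-B and later B cells had 8 of 10 measured genes lower, among them Ikzf3, which is also on the regulator list, and their sum went from 1320 to 327 RPKM. Cd2 went from 61.8 to 7.39 RPKM and Ms4a1, which encodes CD20, from 69.3 to 5.07 RPKM. The 2 measured genes that were not called were Il2ra, nearly level at 5.995 and 5.75 RPKM, and Irf4, at 106 and 59.1 RPKM. Small pre-B cells use RAG again for the light chain genes, and the part of such cells in the lower Rag1 and Polm values was not tested.

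Other cell types were followed by their own markers. Of 9 measured genes of plasmacytoid dendritic cells 6 were higher in Δ/Δ, among them Siglech, at 0.850 and 5.64 RPKM. The 3 within the rule did not share 1 direction. Cox6a2 was at 14.9 and 8.63 RPKM and Irf8 at 290 and 229 RPKM, whereas Tcf4 was at 59.0 and 74.0 RPKM. The list's sum was 367 RPKM in C/C against 331 RPKM in Δ/Δ, most of it from Irf8 and Tcf4, which B lineage cells express too. T lineage markers had 2 higher and 1 lower of 6 measured (2 higher and 0 lower after centring), with sums of 122 and 109 RPKM. The higher genes were Cd4, at 0.150 and 2.62 RPKM in a processed transcript, and Thy1, at 23.7 and 55.7 RPKM. Lat was the lower gene, at 75.7 and 36.3 RPKM. Within the rule, Zap70 and Lck had ratios of 0.452 and 0.572, and Cd5 had a ratio of 1.45. Among the T cell genes under 1 RPKM in both libraries, Cd3d was at 0.0310 and 0.348 RPKM and Cd3g at 0.0400 and 0.379 RPKM. Cd8b1 was at 0.0740 and 0.420 RPKM, whereas Tcf7 was at 0.740 and 0.656 RPKM. Cd3e was listed at 0 in C/C and at 0.0580 RPKM in Δ/Δ, and Ptcra was listed at 0 in both. Myeloid markers had 11 of 14 measured genes higher, with sums of 128 and 363 RPKM, and erythroid and platelet markers 6 of 8, with sums of 102 and 170 RPKM. Most of each C/C sum came from 1 nearly level gene. These were Ctss on the myeloid list, at 93.9 and 99.7 RPKM, and Car2 on the other, at 93.0 and 91.8 RPKM. The myeloid genes Mpo and Elane were listed at 0 in C/C. Of the plasma cell, natural killer, mast cell, stem cell and stroma lists, 2, 0, 1, 3 and 2 genes were measured. No gene of them was lower, and 3 were higher: Ly6a at 1.32 and 28.1 RPKM on the stem cell list, Timp3 at 0.460 and 2.93 RPKM on the stroma list, and Prss34 on the mast cell list, listed at 0 in C/C and at 1.16 RPKM in Δ/Δ. Kit and Meis1 on the stem cell list stayed within the rule, with ratios of 0.506 and 1.32. Pecam1 on the stroma list did too, with a ratio of 0.598. The measured plasma cell genes, Sdc1 and Irf4, had ratios of 0.654 and 0.559. Sums were 9 and 34.8 RPKM on the stem cell list and 31.6 and 21.7 RPKM on the stroma list. The part of any of these cells in the Dntt value was not tested.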

How the data were processed

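RNA of 2 cultures was sequenced as ribosomal RNA-depleted, 101 bp paired-end libraries, per the labels' protocols. The authors deposited 1 table of RPKM values per transcript, rounded to 3 decimals, whose columns Wt and Del were read as the undeleted and the deleted culture. Per the submitters' processing notes, TopHat2 2.0.9, bedtools and the builds mm9 and mm10 were used. For the annotation release, the counting rule and strand, nothing is given in the sources used here. Reads shared by overlapping genes or near-identical copies are therefore uncertain.

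Transcripts were matched to GENCODE M21 (GRCm38), which named 89571 rows (95.7%), and the other 4044 entered nothing. Coordinates are from that annotation. Each gene was represented by its transcript with the highest mean RPKM. Depth was recovered by searching for the value at which RPKM times length gives whole reads. It left 97.0% (C/C) and 96.3% (Δ/Δ) of low values within 0.1 of a whole read on transcripts of 100 to 800 bases. Transcripts with 2 reads outnumbered those with 1, so 2 reads were taken as 1 fragment in exact 95% intervals of rate ratios. The search, the intervals and the size rule were checked on simulated data. The size rule used a pseudocount of 0.5 RPKM, which understates the change of low genes. With 1 library per group there was no test. Promoters are RefSeq's (GRCm38.p6), matched by symbol for 9 of 10 genes.

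The members and lists were chosen with earlier results of these data known. Named are all 10 genes, the X family polymerases, the genes of the Rag locus, Setdb1 and up to 4 measured genes of largest absolute log2 ratio per repair or regulator list. Some genes that this rule names are not reported here. Markers and other genes were chosen after their values were seen. No gene was named for a like pattern, since over 2 libraries a pattern is 1 ratio. Alternatives were other pseudocounts, filters, scalings, transcript choices and fold rules. Python 3.11.15, pandas 2.3.3, numpy 2.4.6, scipy 1.17.1 and matplotlib 3.10.9 were used.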

Additional observations from a re-analysis of the deposited data

How the results depend on the processing

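Rag1 was the gene called lower among the 10, and none was called higher, with pseudocounts of 0.1 and 1 RPKM, without a filter, with a filter of 5 RPKM (which 8 of the 10 passed), after centring, with a common sum without the 20 most abundant genes, and with each other choice of transcript. Its log2 ratio ran from -2.03 to -1.87 over these. A 1.5-fold rule called 2 of the 10 lower (Rag1 and Nhej1) and 1 higher (Dntt), 29 and 3 of the further list genes, and 2101 and 1583 of all measured genes. A 4-fold rule called 0 of the 10 lower, since the added 0.5 RPKM keeps Rag1 at -1.96, with 2 further list genes lower, and 234 lower and 220 higher among all genes. The filter of 5 RPKM left 510 lower and 452 higher among all genes, fewer genes being tested. The choice of protein-coding transcripts, made after the data were seen, moved Xrcc6 from 0.03 to 0.19. No paired analysis was possible because each group has 1 library, and no library could be left out.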

Other observations

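Genes that alter antibody genes after V(D)J recombination were a list of their own. Of the 8 measured genes none passed the 2-fold rule, beside 6.66% lower and 6.28% higher among all measured genes, shares at which 8 genes would hold few calls. The median log2 ratio was 0.08, beside -0.09 for all measured genes. The uracil glycosylase gene Ung was at 18.7 RPKM in C/C against 30.7 RPKM in Δ/Δ. The translesion polymerase genes Rev1 and Polh had lower values, at 13.4 and 7.74 RPKM and at 32.6 and 20.6 RPKM.

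Protein-coding neighbours that start within 1000 bases of a member and run the other way were looked up after the data were seen. Of the 10 genes, 4 have one, and non-coding neighbours were not searched. Mcm4, a subunit of the replicative helicase that starts 489 bases from Prkdc, measured 33.5 and 47.1 RPKM, a ratio of 1.40 (1.37 to 1.44) beside 1.43 for Prkdc. Abhd13, which starts 21 bases from Lig4, measured 6.45 and 6.33 RPKM, a ratio of 0.982 beside 1.07 for Lig4. Desi1, 206 bases from Xrcc6, measured 31.5 and 30.4 RPKM. Tmem167 differed from its neighbour, with a ratio of 2.11 (1.97 to 2.26) beside 0.788 for Xrcc4.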
